A study of Homo sapiens with 4 samples.

Results

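The transcripts of 10 genes that drive the cell cycle were followed in SW1990 and PANC-1 cells: the cyclins CCND1, CCND3, CCNE1, CCNE2, CCNA2 and CCNB1 and the cyclin-dependent kinases CDK1, CDK2, CDK4 and CDK6. They were taken by gene name from a table of 58174 genes with an Ensembl identifier, and all 10 were found. SW1990 and PANC-1 are established human pancreatic cancer cell lines. Cells of each line, at passage 14-16, were left unirradiated or were exposed to 10 Gy of X-rays, and their total RNA was sequenced with 1 library per line and treatment, 4 libraries in all. PANC-1 cells were grown in DMEM and SW1990 cells in 1640 medium, both with 10% FBS, so the medium and the line cannot be told apart. The time between radiation and RNA collection is not given in the sources used here. The study sequenced irradiated cells to ask which signals change in tumor cells that are dying after radiotherapy.

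A cyclin is the regulatory subunit that switches on a cyclin-dependent kinase, and the amount of most cyclins goes up and down through the cell cycle while the kinases are more stable. The D-type cyclins pair with CDK4 and CDK6 in G1 phase and start the phosphorylation of RB, which holds back the E2F transcription factors. E-type cyclins with CDK2 drive entry into S phase, cyclin A2 works with CDK2 in S phase and with CDK1 in G2 phase, and cyclin B1 with CDK1 brings cells into mitosis. Radiation damages DNA and is known to halt cells at checkpoints before S phase and before mitosis, partly through the inhibitor encoded by CDKN1A. Loss of CDKN2A, which encodes an inhibitor of CDK4 and CDK6, is common in pancreatic cancer.

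Each library was deposited as read counts and as FPKM, a level scaled to transcript length and to library size. The total count was 17939210 for unirradiated SW1990, 18388969 for irradiated SW1990, 23451153 for unirradiated PANC-1 and 20154644 for irradiated PANC-1 cells. All 10 genes had at least 203 counts in every library, so none of them was near the floor of 3 counts, which corresponded to between 0.129 and 0.168 CPM, the count scaled to the library total. The share of counts on mitochondrial genes was 4.42% in SW1990 cells without and 5.56% with radiation, and 3.30% and 2.99% in PANC-1 cells. Its part in the differences below was not tested.

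The labelled lines were compared with marker genes. Of the keratins, KRT8 was the most abundant, with 38674 and 53301 counts in SW1990 and 28483 and 27779 in PANC-1 cells, unirradiated first, and KRT18 and KRT19 had at least 5490 counts in every library. KRT7 had between 97 and 145 counts in the 4 libraries, and KRT17 had 108 and 110 in SW1990 and 0 and 2 in PANC-1 cells. The 7 epithelial markers summed to 2887 and 3723 FPKM in SW1990 and 1409 and 1639 FPKM in PANC-1 cells. Within that list, however, the lines stood apart. EPCAM, an epithelial surface protein, had 7348 and 7552 counts in SW1990 and 108 and 113 in PANC-1 cells. The adhesion gene CDH1 had 9906 and 14345 counts in SW1990 and 59 and 65 in PANC-1 cells. The mesenchymal filament gene VIM had 17 and 0 counts in SW1990 and 82406 and 75166 in PANC-1 cells. The other mesenchymal markers had more counts in irradiated SW1990 cells. There, ZEB1 had 14 and 66 counts, FN1 0 and 25 and CDH2 0 and 4, and ZEB1 passed 2-fold (log2 fold change 2.23, counting interval 1.38 to 3.18). Genes were measured where either library of the line reached an FPKM of 1, and ZEB1 did so in SW1990 cells only after radiation. This filter favours such a call, and 9.6% of all genes passed 2-fold in SW1990 cells. Over the 4 mesenchymal markers the summed level was 0.940 and 1.49 FPKM in SW1990 and 1647 and 1670 FPKM in PANC-1 cells. All 4 endocrine markers were at 0 counts in every library, and of the 5 acinar markers PRSS1 was the most abundant, with 12 and 8 counts in SW1990 and 0 in PANC-1 cells. Of the immune markers, PTPRC and CD3E had between 0 and 2 counts. CD14, the most abundant, had 39 and 56 in SW1990 and 26 and 52 in PANC-1 cells. It passed 2-fold in PANC-1 cells (log2 fold change 1.13, 0.42 to 1.87), where its FPKM reached 1 only in the irradiated library. Among all genes there, 9.12% passed 2-fold. KDR, an endothelial receptor, had 999 and 746 counts in PANC-1 cells, while PECAM1 and CDH5 had 0 in both PANC-1 libraries. VWF had 14 and 50 counts in SW1990 and 2 and 4 in PANC-1 cells. Of the fibroblast markers, COL1A1 was the most abundant, with 965 and 1315 counts in PANC-1 and 103 and 165 in SW1990 cells, and COL1A2 and DCN were at 0 in all 4 libraries. The log2 fold change of COL1A1 in SW1990 cells was 0.67 (0.31 to 1.04) from counts and 1.03 by FPKM. PDGFRB had 129 and 63 counts in SW1990 and 0 and 3 in PANC-1 cells, with a log2 fold change of -1.04 after radiation in SW1990 cells (-1.50 to -0.60) and of -0.60 by FPKM. The part of these markers in the results was not tested.

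In both lines, CCND1, CCNB1 and CDK1 had higher scaled counts in the irradiated library and CDK4 lower ones, with counting intervals apart from 0. Each differed by less than 2-fold, and CCNB1 in SW1990 cells was lower by FPKM. With CCNE1, CDK2 and CDK6, 6 of the 10 were higher in both lines by sign, beside 25.6% of the 13228 genes measured in both. By scaled counts, CDK4 in PANC-1 cells differed most, with a log2 fold change of -0.74, while by FPKM it was CCNE2 in PANC-1 cells, with 0.98. CDK1 and CCNE2 in PANC-1 and CDK6 in SW1990 cells came next, with log2 fold changes of 0.52, 0.51 and 0.50. The fold changes were taken from counts after TMM scaling, and their 95% intervals come from the 2 counts by the exact Clopper-Pearson method and cover counting error only. With 1 library per line and treatment there was no spread between replicates and no test within a line.

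None of the 10 genes passed a 2-fold difference in either line. Among all genes that reached an FPKM of 1 in either library of the line, 9.6% passed it in SW1990 (1510 of 15731, 4.35% higher and 5.25% lower) and 9.12% in PANC-1 cells (1383 of 15159, 4.95% higher and 4.18% lower). At a limit of 1.5-fold, CDK4 in PANC-1 cells was the only member to pass, beside 21.6% of all genes in PANC-1 and 20.3% in SW1990 cells. The counting interval lay apart from 0 for 6 of the 10 genes in each line, against 48.7% of all genes in SW1990 and 56.5% in PANC-1 cells. Of these, 5 lay above 0 and 1 below in each line, where the shares of all genes were 25.2% above and 23.5% below in SW1990 cells, and 26% above and 30.5% below in PANC-1 cells. By sign alone, 6 of the 10 were higher after radiation in SW1990 and 9 in PANC-1 cells, beside 49.3% and 48.3% of all genes. The median log2 fold change over the 10 genes was 0.16 in SW1990 and 0.11 in PANC-1 cells, and over all genes -0.01 and -0.02. By FPKM, the medians were 0.10 and 0.22 over the 10 genes and -0.03 and 0.07 over all genes. Bulk RNA was sequenced, so that fewer cells in a phase and less RNA per cell cannot be told apart.

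**Figure D1:**
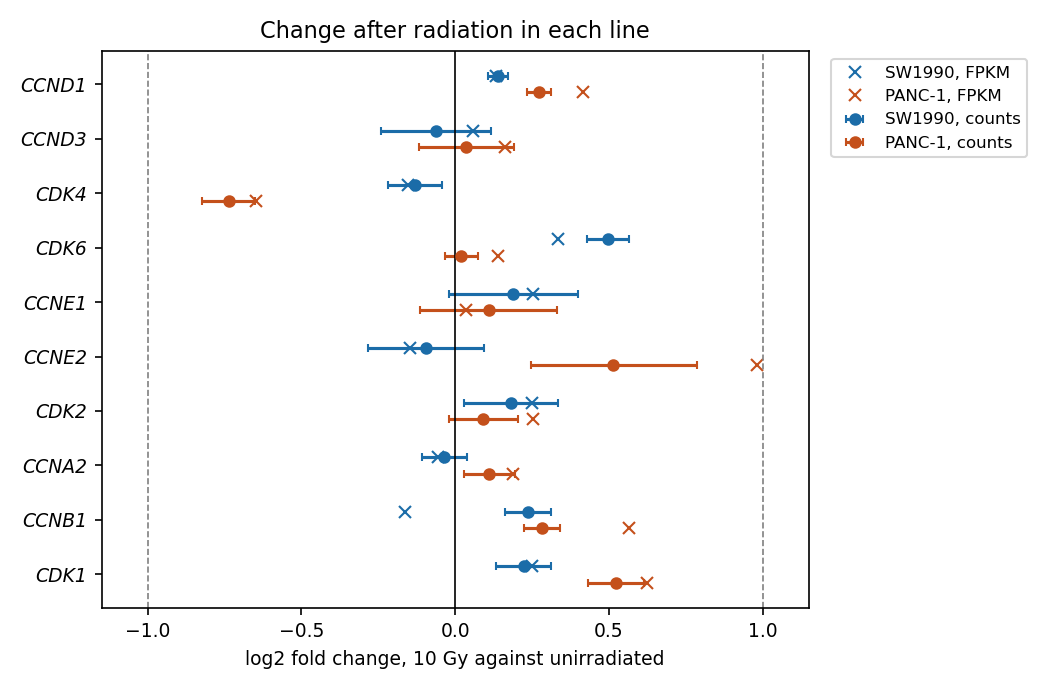
Log2 fold change of each gene after 10 Gy in SW1990 and PANC-1 cells, from TMM-scaled counts (circles, with 95% counting intervals) and from FPKM (crosses), with 1 library per line and treatment. Dashed lines mark a 2-fold difference, which no circle reaches. Among circles, CDK4 in PANC-1 cells lies farthest from 0, at -0.74, and among crosses CCNE2 in PANC-1 cells, at 0.98. CCNB1 and CCND3 in SW1990 cells have their circle and their cross on opposite sides of 0.

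The 4 libraries were then fitted together with cell line as a covariate, which asks for a change shared by both lines. By edgeR's quasi-likelihood test, 0 of the 10 genes and 0 of the 18180 genes tested (0%) passed an adjusted p of 0.05, with 1 residual degree of freedom. At an unadjusted p under 0.05 the fit held 833 genes (4.58%), again with 0 of the 10. DESeq2 called 38 genes, limma on FPKM 1 and limma-voom 0, with none of the 10 among them. CDK1 had the lowest unadjusted p of the 10, 0.0534, with a log2 fold change of 0.39 and an adjusted p of 0.936 by edgeR's quasi-likelihood test, and was higher in 2 of 2 lines. Its 95% interval by limma-voom ran from -0.02 to 0.80. For CDK4 the shared log2 fold change was -0.42, with an interval from -0.98 to 0.14.

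Cyclin D1 is the mitogen-induced partner of CDK4 and CDK6. CCND1 (ENSG00000110092, chr11:69641087-69654474 on GRCh38) was among the most abundant transcripts of the 10, at 178 and 196 FPKM in SW1990 cells without and with radiation and 89.6 and 120 FPKM in PANC-1 cells. Both SW1990 libraries were above both PANC-1 libraries. The counts were 15478 and 17123 in SW1990 and 10101 and 11156 in PANC-1 cells. After scaling, the log2 fold change with radiation was 0.14 (counting interval 0.11 to 0.17) in SW1990 and 0.27 (0.23 to 0.31) in PANC-1 cells. CCND1 was thus higher after radiation in both lines, by 10.1% and 20.9%.

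Cyclin D3 serves the same kinases. CCND3 (ENSG00000112576, chr6:41934933-42050357) had 528 and 508 counts in SW1990 and 713 and 668 in PANC-1 cells, at levels between 13.6 and 16.2 FPKM. Its log2 fold change was -0.06 (-0.24 to 0.12) in SW1990 and 0.04 (-0.12 to 0.19) in PANC-1 cells. Both counting intervals include 0, so no difference with radiation beyond counting error was seen in either line. CCND2, which encodes the remaining D-type cyclin, had 3470 and 4263 counts in SW1990 cells but 248 and 53 in PANC-1 cells. It was 0.29 higher on the log2 scale (0.23 to 0.36) in irradiated SW1990 cells and differed by -2.10 (-2.55 to -1.66) in PANC-1 cells, the only cyclin outside the 10 past 2-fold. In PANC-1 cells its FPKM was 1.36 without and 0.408 with radiation, so only the unirradiated library reached the FPKM of 1 required. The filter thus favours a call of a lower level.

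CDK4 (ENSG00000135446, chr12:57747727-57756013) encodes a kinase of the D-type cyclins. It had 2185 and 2004 counts in SW1990 and 3015 and 1653 in PANC-1 cells, at 114, 102, 95.5 and 60.9 FPKM in the same order. The irradiated PANC-1 library was the lowest of the 4. The exons of CDK4 share 43.2% of their bases with TSPAN31 on the opposite strand, which had 128 and 177 counts in SW1990 and 52 and 72 in PANC-1 cells, and whether counting used strand is not given in the sources used here. With radiation, the log2 fold change was -0.13 (-0.22 to -0.04) in SW1990 and -0.74 (-0.82 to -0.65) in PANC-1 cells, and by FPKM -0.15 and -0.65. CDK4 was the only 1 of the 10 with intervals below 0 in both lines, a pattern found in 10.6% of the 13228 genes measured in both.

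CDK6 (ENSG00000105810, chr7:92604921-92836594) encodes the second D-type cyclin kinase. It had 3019 and 4282 counts in SW1990 and 5799 and 5371 in PANC-1 cells, at 15.4, 19.4, 20.3 and 22.4 FPKM. In SW1990 cells it was 41.2% higher after radiation, with a log2 fold change of 0.50 (0.43 to 0.57). In PANC-1 cells the value was 0.02 (-0.03 to 0.07). The gap between the lines was 0.48 on the log2 scale (0.39 to 0.56) from the counts and 0.20 from FPKM.

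The balance of CDK4 and CDK6 differed with radiation in the same direction in both lines. The ratio of CDK4 to CDK6 in FPKM was 7.38 without and 5.27 with radiation in SW1990 cells, and 4.71 and 2.73 in PANC-1 cells. In FPKM, CDK6 made up 11.9% and 16.0% of the sum of both kinases in SW1990 cells and 17.5% and 26.8% in PANC-1 cells. By counts per kilobase of annotated exon, the share of CDK6 was 26.3% and 35.6% in SW1990 and 33.2% and 45.6% in PANC-1 cells. The share thus depended on the measure used, and the cause was not tested. On either scale, the share of CDK6 was larger in the irradiated library of each line. Among D-type cyclins, CCND1 made up between 81.0% and 87.8% of the FPKM in each library, and CCND2 took 12.1% and 13.1% in SW1990 cells against 1.29% and 0.299% in PANC-1 cells.

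**Figure D2:**
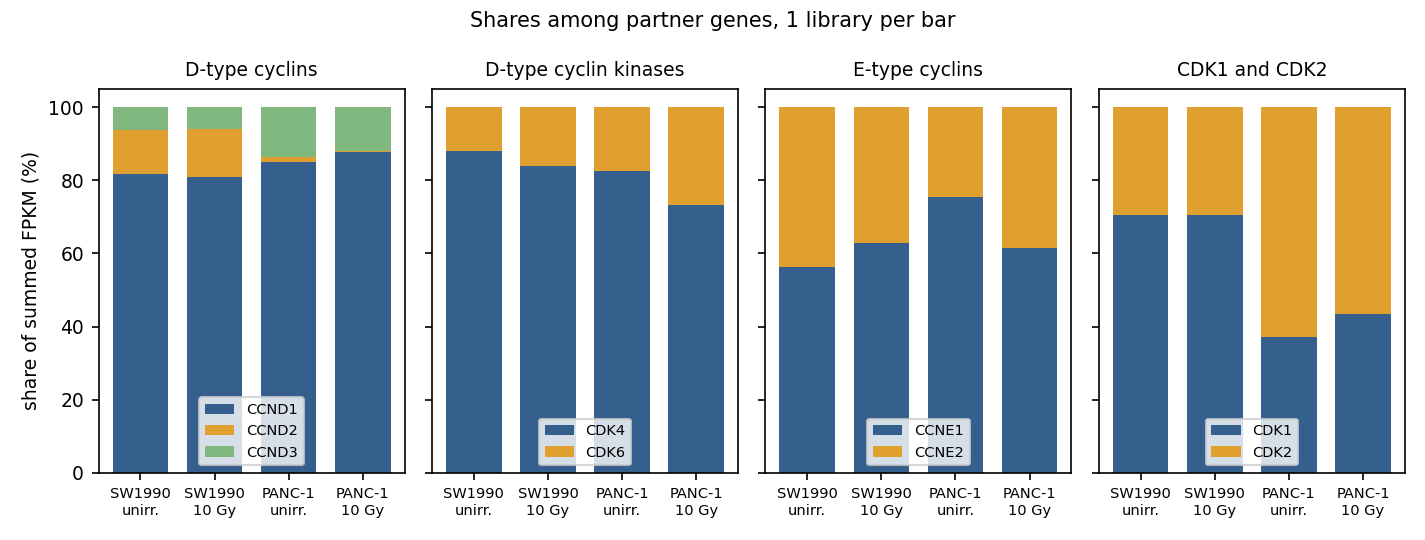
Share of the summed FPKM (percent, 1 library per bar, no error bars because there are no replicates) of related genes: D-type cyclins, CDK4 and CDK6, E-type cyclins, and CDK1 and CDK2. CDK6 takes 11.9% to 26.8% of its bars and is larger in the irradiated bar of each line, and CDK2 takes 62.9% and 56.7% in PANC-1 cells against 29.4% in both SW1990 bars.

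The reference sequence before the transcription start of CDK4 is shown because CDK4 was the gene with the largest difference in scaled counts. The promoter is the 250 bases upstream of the RefSeq start on the minus strand of GRCh38.p14, at chr12:57752311-57752560, written 5′ to 3′ with the E box CACGTG in capitals.
CDK4: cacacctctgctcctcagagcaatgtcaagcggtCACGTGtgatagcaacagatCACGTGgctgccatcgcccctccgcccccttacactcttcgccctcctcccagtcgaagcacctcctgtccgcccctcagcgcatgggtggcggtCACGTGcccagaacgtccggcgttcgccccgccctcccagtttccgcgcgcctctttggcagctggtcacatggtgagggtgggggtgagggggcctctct
The E box, the binding motif of MYC and related factors, was found 3 times in this window and reads the same on both strands. It was present in 6.34% of 35116 RefSeq promoter windows of the same length. Of the 7 members with a promoter entry (CCNA2, CCNB1, CCND3, CCNE1, CDK1, CDK4 and CDK6), CDK4 and CCNB1 held it. This motif was chosen after the sequences had been seen, and a match of letters is a description only.

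The E-type cyclins were the least abundant of the 10 in FPKM. CCNE1 (ENSG00000105173, chr19:29811898-29824308) had 351 and 402 counts in SW1990 and 339 and 334 in PANC-1 cells, at 11.5, 13.7, 8.74 and 8.97 FPKM. Its log2 fold change was 0.19 (-0.02 to 0.40) in SW1990 and 0.11 (-0.11 to 0.33) in PANC-1 cells. Both counting intervals include 0, so no difference with radiation beyond counting error was seen.

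CCNE2 (ENSG00000175305), which encodes the second E-type cyclin, had 477 and 449 counts in SW1990 and 203 and 265 in PANC-1 cells. Its level was 8.95 and 8.08 FPKM in SW1990 cells and 2.84 and 5.61 FPKM in PANC-1 cells. This was the lowest FPKM of the 10 genes in all 4 libraries, although CCND3 was lower in SW1990 cells by counts per kilobase of exon. The log2 fold change of CCNE2 was -0.09 (-0.28 to 0.09) in SW1990 and 0.51 (0.25 to 0.79) in PANC-1 cells. By FPKM the PANC-1 value was 0.98, above the counting interval. The exons of CCNE2 share 37.0% of their bases with INTS8 on the opposite strand, which had between 1095 and 1873 counts, and whether counting used strand is not given in the sources used here. Without strand, reads of such pairs cannot be told apart, so the counts of CCNE2 and of CDK4 are uncertain, and the part of the overlap was not tested. Of the summed FPKM of both E-type cyclins, CCNE2 made up 43.7% and 37.1% in SW1990 and 24.5% and 38.5% in PANC-1 cells.

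CDK2 (ENSG00000123374, chr12:55966769-55972784) encodes the kinase of the E-type and A-type cyclins. It had 663 and 755 counts in SW1990 and 1298 and 1264 in PANC-1 cells, at 19.9, 23.7, 56.9 and 67.8 FPKM. Both PANC-1 libraries stood above both SW1990 libraries. The log2 fold change with radiation was 0.18 (0.03 to 0.33) in SW1990 and 0.09 (-0.02 to 0.20) in PANC-1 cells.

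Cyclin A2 spans S phase and the approach to mitosis. CCNA2 (ENSG00000145386, chr4:121816444-121823933) had 3004 and 2946 counts in SW1990 and 2372 and 2339 in PANC-1 cells, at 49.0, 47.1, 29.4 and 33.5 FPKM. Its log2 fold change was -0.03 (-0.11 to 0.04) in SW1990 and 0.11 (0.03 to 0.19) in PANC-1 cells. Both SW1990 libraries stood above both PANC-1 libraries.

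Cyclin B1 is the activator of CDK1 at mitosis. CCNB1 (ENSG00000134057, chr5:69167010-69178245) had 2772 and 3281 counts in SW1990 and 4477 and 4979 in PANC-1 cells. The log2 fold change from counts was 0.24 (0.16 to 0.31) in SW1990 and 0.28 (0.23 to 0.34) in PANC-1 cells. The FPKM values were 98.0 and 87.4 in SW1990 and 101 and 150 in PANC-1 cells, which gives log2 fold changes of -0.16 and 0.57. The direction in SW1990 cells thus depended on the unit, and no overlapping gene was annotated at this locus.

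CDK1 (ENSG00000170312, chr10:60778331-60794852) encodes the kinase of mitosis. It had 1885 and 2211 counts in SW1990 and 1726 and 2265 in PANC-1 cells, at 47.9, 57.0, 33.6 and 51.8 FPKM. In both lines the irradiated library was the higher, by a log2 fold change of 0.22 (0.13 to 0.31) in SW1990 and 0.52 (0.43 to 0.61) in PANC-1 cells. CCND1, CCNB1 and CDK1 were the 3 of the 10 with intervals above 0 in both lines, against 9.71% of the 13228 genes measured in both.

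The promoters of CDK1, CCNB1 and CCNA2 are shown because these genes share the window of the cycle from S phase to mitosis. Each is the 250 bases before the RefSeq start on GRCh38.p14, 5′ to 3′ on the strand of the gene: chr10:60778081-60778330 on the plus strand for CDK1, chr5:69166900-69167149 on the plus strand for CCNB1 and chr4:121823884-121824133 on the minus strand for CCNA2. Capitals mark CCAAT, the letters bound by the factor NF-Y, TTTGAA, the core of the cell cycle genes homology region, and the E box CACGTG, each searched on both strands.
CDK1: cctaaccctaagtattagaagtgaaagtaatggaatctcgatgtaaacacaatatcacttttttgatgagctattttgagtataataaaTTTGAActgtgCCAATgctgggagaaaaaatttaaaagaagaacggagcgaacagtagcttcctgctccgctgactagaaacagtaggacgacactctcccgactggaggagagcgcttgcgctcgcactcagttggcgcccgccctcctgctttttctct
CCNB1: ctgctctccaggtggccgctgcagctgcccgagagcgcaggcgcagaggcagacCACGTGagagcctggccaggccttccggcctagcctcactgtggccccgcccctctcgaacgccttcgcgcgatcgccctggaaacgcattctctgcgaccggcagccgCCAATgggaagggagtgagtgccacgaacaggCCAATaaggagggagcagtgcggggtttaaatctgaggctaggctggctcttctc
CCNA2: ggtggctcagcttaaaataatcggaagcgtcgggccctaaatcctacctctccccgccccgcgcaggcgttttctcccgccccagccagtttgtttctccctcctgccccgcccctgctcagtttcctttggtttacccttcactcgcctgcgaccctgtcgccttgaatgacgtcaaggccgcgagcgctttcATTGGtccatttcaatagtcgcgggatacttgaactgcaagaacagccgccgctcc
CCAAT was found in all 3 of these windows and in none of the windows of CCND3, CCNE1, CDK4 and CDK6. Over the members it was thus held by 3 of 7, beside 32.0% of the 35116 windows. The split between the 2 sets of genes was not tested, and a match of letters is a description only. CCNB1 held it at 87 and 55 bases before the start, and CCNA2 held it on the opposite strand at 56 bases before the start. In CDK1, TTTGAA stood 161 bases and CCAAT 150 bases before the start, and TTTGAA was found in 13.3% of all windows. For the homology region only the letters TTTGAA were searched, so variant forms would not be marked in any window. Bases after the start were not searched, and whether the match in CDK1 acts as such a region was not tested. The GC box GGGCGG, not capitalised here, was found on either strand in all 7 windows and in 42.6% of all windows. The capitalised matches did not overlap.

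**Figure D3:**
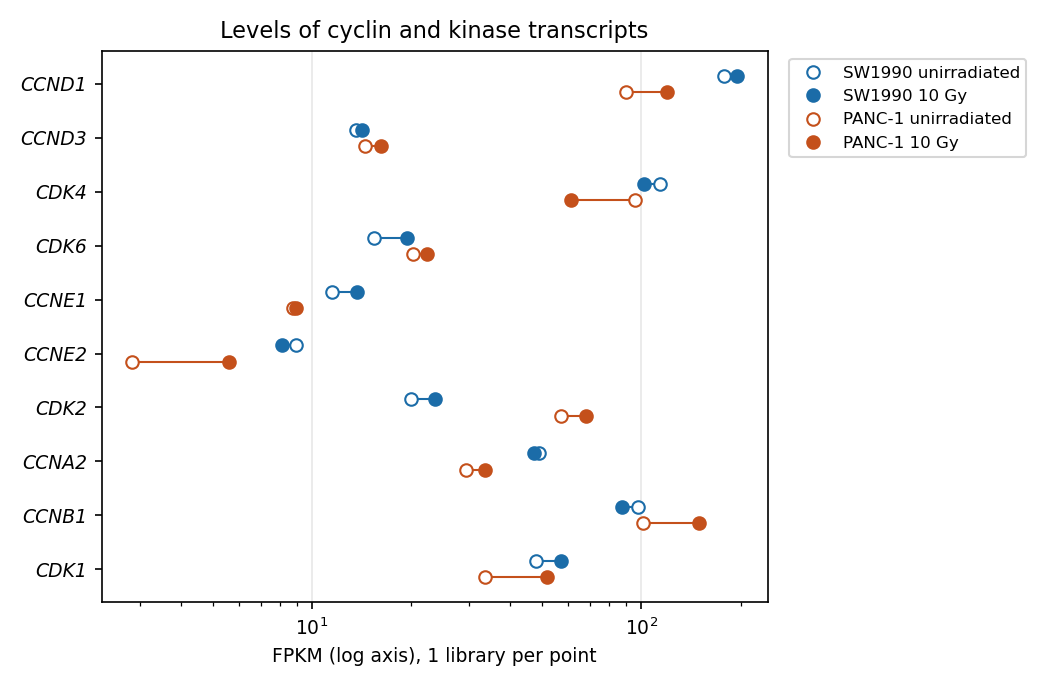
FPKM of each gene on a log axis in SW1990 and PANC-1 cells, open circles for the unirradiated and filled circles for the irradiated library, with 1 library per point and a line joining the pair. The CDK2 pair of PANC-1 cells, at 56.9 and 67.8, lies above that of SW1990 cells, at 19.9 and 23.7, and CCNE2 in PANC-1 cells has the lowest point, at 2.84 FPKM.

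The order of levels was similar in the 4 libraries. In FPKM, CCND1 ranked first in both SW1990 libraries and CCNB1 first in both PANC-1 libraries. CDK6, CCND3, CCNE1 and CCNE2 took the last 4 places by FPKM in all libraries in that order. The clearest difference in order concerned CDK2, whose level was below that of CDK1 in SW1990 and above it in PANC-1 cells. The ratio of CDK1 to CDK2 in FPKM was 2.40 and 2.41 in SW1990 cells and 0.591 and 0.765 in PANC-1 cells. By counts per kilobase of exon, CDK1 made up 56.8% and 64.0% of the sum of both in PANC-1 cells. The order of CDK1 and CDK2 in that line thus depended on the measure used, and the cause was not tested. On that scale, CDK6 also lay above CDK2, and CCND3 below CCNE1, in every library. Without replicates, the spread that would separate neighbours in the order is not known.

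The lines themselves differed in the levels of some of these genes. In the fit with treatment as a covariate, 4 of the 10 genes differed between SW1990 and PANC-1 cells at an adjusted p of 0.05 by edgeR's quasi-likelihood test, beside 43.6% of all 18180 genes tested (21.4% higher and 22.2% lower in SW1990 cells). CCND1 was higher in SW1990 cells by 0.72 on the log2 scale (adjusted p = 0.0138) and CCNE2 by 1.10 (adjusted p = 0.0242). CDK2 was lower there, with a log2 difference of -0.75 (adjusted p = 0.0185), and so was CCNB1, with -0.54 (adjusted p = 0.0295). Each of these 4 had the same sign in both treatments. The call of CCNB1 was lost with library totals, without a filter on low counts and in limma on FPKM. CCNA2 (0.44, adjusted p = 0.0558) and CDK6 (-0.53, adjusted p = 0.0664) missed the threshold. In limma on log2(FPKM + 1), the difference of CDK2 was -1.47. The log2 differences of CCND3, CCNE1, CDK1 and CDK4 were -0.31, 0.27, 0.15 and 0.01, with adjusted p from 0.201 to 0.964, and that of CDK4 was 0.49 in limma on FPKM, with an adjusted p of 0.0612. The share of members called was close to that of all genes.

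The difference of the radiation change between lines could not be tested, because a model with an interaction leaves no residual degrees of freedom. As a description, the log2 fold change in SW1990 cells minus that in PANC-1 cells was 0.61 for CDK4 (counting interval 0.48 to 0.73), 0.48 for CDK6 and -0.61 for CCNE2 (-0.93 to -0.29). For CDK1 it was -0.30 (-0.43 to -0.17) and for CCNB1 -0.05 (-0.14 to 0.05). By FPKM, the values were 0.20 for CDK6, -1.13 for CCNE2 and -0.73 for CCNB1. CCND3, CCNE2 and CCNA2 had opposite signs in the lines, as had 45.2% of all genes measured in both.

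The inhibitors of these kinases were examined next. CDKN1A, a target of p53 whose product binds cyclin and kinase complexes, had 1229 and 4002 counts in SW1990 and 1282 and 782 in PANC-1 cells. It was 3.24-fold higher in irradiated SW1990 cells (log2 fold change 1.70, 1.60 to 1.79) and differed by -0.58 (-0.71 to -0.45) in PANC-1 cells. It was the only 1 of the 5 inhibitors measured in each line to pass 2-fold, and it did so in SW1990 cells only. Among all genes, 9.6% passed 2-fold in SW1990 (4.35% higher) and 9.12% in PANC-1 cells. By FPKM, CDKN1C in PANC-1 cells also passed 2-fold, with a log2 fold change of 1.01, as did 1540 of all 15159 genes there. Its FPKM was 0.794 without and 1.60 with radiation, from 44 and 63 counts. Only the irradiated library reached the FPKM of 1 required, so the filter favours this call. CDKN2C, an inhibitor of CDK4 and CDK6, had 217 and 153 counts in SW1990 and 635 and 1006 in PANC-1 cells, with log2 fold changes of -0.51 (-0.82 to -0.21) and 0.79 (0.65 to 0.94). CDKN1B, a relative of CDKN1A, had log2 fold changes of -0.17 and -0.24, CDKN1C of 0.12 and 0.65, and CDKN2D of -0.60 and -0.07, in SW1990 and PANC-1 cells.

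CDKN2A and CDKN2B, the neighbouring inhibitors of CDK4 and CDK6, were at or near 0. CDKN2A had 6 and 9 counts in SW1990 cells and 0 in both PANC-1 libraries. CDKN2B had 24 and 34 counts in SW1990 cells and 0 in both PANC-1 libraries, and was at least 10.5-fold higher in unirradiated SW1990 than in unirradiated PANC-1 cells, taken at the floor of 3 counts per library. No fold change with radiation is given for them in PANC-1 cells.

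Genes that act on cyclin and kinase complexes were mostly within 2-fold. Of 12 genes of CDK phosphorylation and activation, 0 passed 2-fold in either line, and 11 in SW1990 and 5 in PANC-1 cells were higher after radiation. Among all genes, 9.6% and 9.12% passed 2-fold, and 49.3% and 48.3% were higher. By FPKM, CCNH, CDC25C and PPP2R2A were lower in SW1990 cells, and CDC25B was higher in PANC-1 cells, against their direction by counts. CDK7 and CCNH, kinase and cyclin of the complex that activates CDKs, had log2 fold changes of 0.30 and 0.19 in SW1990 cells and -0.49 and -0.54 in PANC-1 cells, and by FPKM the value of CCNH in SW1990 cells was -0.19. The inhibitory kinase WEE1 had -0.23 and 0.45, and its relative PKMYT1 had 0.14 and 0.50. Of 19 genes of cyclin degradation, 0 passed 2-fold, with medians by counts of 0.05 in SW1990 and -0.08 in PANC-1 cells. CDC20, an activator of the anaphase-promoting complex that marks cyclin B1 for destruction, had log2 fold changes of 0.20 and 0.36. The complex subunit ANAPC11 had 0.14 and 0.65, ANAPC10 had -0.31 and -0.44, and the ubiquitin-conjugating enzyme UBE2C had 0.44 and -0.06. By FPKM, SKP1, FBXW7, AMBRA1, UBE2C, UBE2S, ANAPC1, CDC23 and CDC27 were higher in PANC-1 cells instead of lower. In SW1990 cells, the sign differed by FPKM for SKP2, FBXW7, FZR1, ANAPC1 and CDC27. The direction of this list in PANC-1 cells thus depended on the unit.

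Downstream of the D-type cyclins, 1 of 19 genes of the RB and E2F list passed 2-fold in each line, and in both it was FOXM1, a transcription factor of genes expressed before mitosis. Of all genes, 9.6% passed it in SW1990 and 9.12% in PANC-1 cells. FOXM1 had 1596 and 3816 counts in SW1990 and 2887 and 1266 in PANC-1 cells, so that it was high after radiation in SW1990 and low after radiation in PANC-1 cells. The log2 fold changes were 1.25 (1.17 to 1.34) and -1.06 (-1.16 to -0.96), and by FPKM 0.85 and -0.65, neither of which passes 2-fold. The repressor E2F7 was lower in both lines (-0.42 and -0.78). E2F2 had log2 fold changes of -0.04 and 0.72 and E2F3, an activator of S-phase genes, 0.44 and -0.29, in SW1990 and PANC-1 cells. The list had a median of -0.03 in SW1990 and 0.11 in PANC-1 cells.

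Among 17 proliferation markers, 0 passed 2-fold in either line, while 9 in SW1990 and 12 in PANC-1 cells were higher after radiation, beside 9.6% and 9.12% of all genes past 2-fold and 49.3% and 48.3% higher. BIRC5, which encodes the mitotic protein survivin, had log2 fold changes of 0.48 and 0.74 from counts and of 0.62 and 1.17 by FPKM. BIRC5 thus passed 2-fold by FPKM in PANC-1 cells, as did 1540 of all 15159 genes there. MCM5 and MCM2, subunits of the replicative helicase, had -0.53 and -0.12 in SW1990 cells and 0.07 and 0.39 in PANC-1 cells. The mitotic kinase AURKA had 0.26 and -0.41. The medians were 0.05 and 0.10, beside -0.01 and -0.02 over all genes. By FPKM, RRM2 and CENPF were lower in SW1990 cells, and MCM7 and CENPF higher in PANC-1 cells, against their direction by counts.

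**Figure D4:**
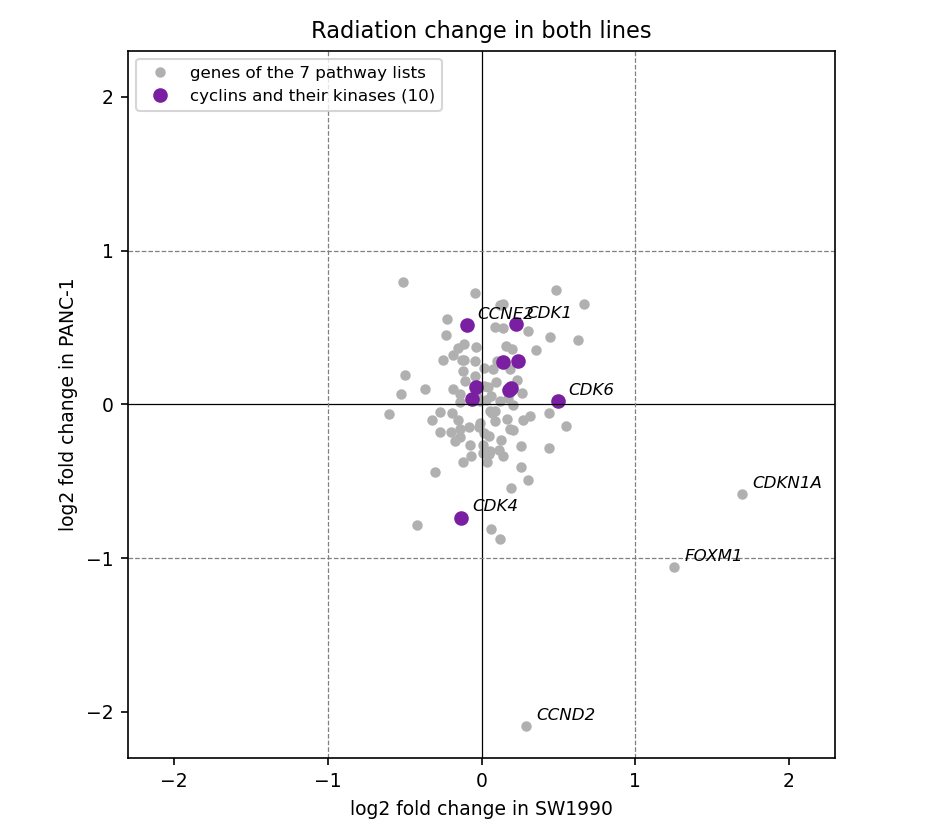
Log2 fold change after 10 Gy in SW1990 cells (horizontal axis) and PANC-1 cells (vertical axis) for the 10 cyclins and kinases (purple) and for 99 genes of 7 pathway lists (grey), each from 1 library per line and treatment. Dashed lines mark 2-fold. All 10 purple points lie inside the dashed square, while CDKN1A (1.70 and -0.58), FOXM1 (1.25 and -1.06) and CCND2 (0.29 and -2.10) lie outside it.

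The other cyclins and kinases showed few large differences. Of 16 other cyclins measured in each line, 13 in SW1990 and 5 in PANC-1 cells were higher after radiation, with medians of 0.15 and -0.19, beside 49.3% and 48.3% of all genes higher and medians of -0.01 and -0.02. CCND2 in PANC-1 cells was the only 1 past 2-fold, beside 9.12% of all genes. CCNG1, a p53 target, had log2 fold changes of 0.55 and -0.14 (0.70 and -0.70 by FPKM), CCNO of 0.63 and 0.42 and CCNJ of 0.06 and -0.81. Of the other kinases, 15 were measured in SW1990 and 16 in PANC-1 cells, and 0 passed 2-fold by counts. CDK5, named after its values were seen, had 0.50 in PANC-1 cells by counts and 1.13 by FPKM. The FPKM value passed 2-fold, as did that of 1540 of all 15159 genes there. CDK17 had 0.12 and -0.88, CDK3 0.67 and 0.65 and CDK10 -0.22 and 0.56. CDK15 had 0 counts in both SW1990 libraries and 42 and 64 in PANC-1 cells. In the fit over both lines, 0 genes of the 7 lists passed an adjusted p of 0.05 by edgeR's quasi-likelihood test.

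Reads of other members could also be shared with a neighbour. Beside the overlaps of CDK4 and CCNE2 given above, CCND1 shares 10.3% with ORAOV1, CCNA2 9.08% with EXOSC9 and CDK2 2.29% with PMEL, all on the opposite strand. CDK2 also shares 14.5% with AC025162.1 on the opposite strand, which had 0 counts in all libraries. No gene overlapped CCNB1, CDK1 or CCNE1 in the annotation.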

How the data were processed

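The authors deposited 1 table with raw read counts and FPKM values per gene and library. The submitters' processing notes name CASAVA 1.8, FastQC 0.11.2, Trimmomatic 0.36, HISAT2 2.0, StringTie 1.3.3b, DESeq2 1.12.4 and GRCh38, and the tool that made the deposited counts is not given in the sources used here. FPKM, as the authors deposited it, is scaled to transcript length and library size, and differed from the counts in direction for some genes. The labels describe removal of ribosomal RNA, while the kit named is for mRNA.

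Of 59263 rows, 1089 without a gene name, with 0.453% to 0.635% of a library's counts, were left out. Dates in place of 27 gene names were corrected. Of 58174 identifiers, 57836 were found in GENCODE release 29. Counts were scaled by TMM in each line, and genes that reached an FPKM of 1 in either library of the line were measured. A fold above 2 was called without a test. Genes kept by filterByExpr in all 4 libraries were fitted with edgeR 4.0.16 (R 4.3.3) by the quasi-likelihood test with Benjamini-Hochberg adjustment, with limma 3.58.1 and DESeq2 1.42.0 as alternatives. The common coefficient of variation was 21.8%. The labels do not say that libraries came from separate cultures. The fits were tested on simulated data. Intervals are at 95%, and the floor is 3 counts.

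The 10 genes, selected by name, and all lists were chosen with earlier results of these data known. Named from each pathway list were up to 4 genes with the largest log2 fold change in either line, every listed inhibitor, every gene past 2-fold, and the 3 genes nearest in profile to CCND1 and to CDK1. Overlapping genes and promoter motifs were named from the annotation.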

Additional observations from a re-analysis of the deposited data

Results flagged for a closer look

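The log2 fold change after radiation had opposite signs in the 2 lines for 22 of the genes described, 3 of the 10 cyclins and kinases, 17 genes of the pathway lists and 2 marker genes. With 1 library per line and treatment these differences were not tested, and 45.2% of all genes measured in both lines had opposite signs. By FPKM, 19 of the 22 had opposite signs as well. The other 3 were CCND3, higher in both lines (0.058 and 0.16), CCNH, lower in both (-0.19 and -0.72), and UBE2C, higher in both (0.44 and 0.011). Values are given for SW1990 cells first and PANC-1 cells second. Among the 10 genes, they were -0.062 and 0.036 for CCND3, -0.094 and 0.51 for CCNE2 and -0.035 and 0.11 for CCNA2. Among kinase inhibitors, they were 1.70 and -0.58 for CDKN1A and -0.51 and 0.79 for CDKN2C. Among other cyclins, they were 0.29 and -2.10 for CCND2, 0.060 and -0.81 for CCNJ, 0.55 and -0.14 for CCNG1 and 0.19 and -0.54 for CCNH. Among other kinases, they were 0.12 and -0.88 for CDK17, -0.22 and 0.56 for CDK10, 0.30 and -0.49 for CDK7 and -0.23 and 0.45 for WEE1. UBE2C had 0.44 and -0.056. Among RB and E2F genes, the values were 1.25 and -1.06 for FOXM1, -0.044 and 0.72 for E2F2 and 0.44 and -0.29 for E2F3. Among proliferation markers, they were -0.53 and 0.069 for MCM5, 0.26 and -0.41 for AURKA and -0.12 and 0.39 for MCM2. Among marker genes, they were 2.23 and -0.23 for ZEB1 and 0.036 and -0.45 for KRT7.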

How the results depend on the processing

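Each line and treatment had 1 library, so no result within a line has a replicate check, and leaving out a library leaves the fit no residual degrees of freedom. The labels give no replicate numbers, so the libraries could be paired by cell line only, as in the fit over both lines. The count of the 10 genes past 2-fold was 0 in both lines under every scaling, filter and call rule run. The exception was a limit of 1.5-fold, where the count was 1 in PANC-1 cells. Stricter filters and added q-value limits could not raise this count. Nor could dropping the filter, since all 10 genes had passed it. Of 60 fold changes of the 10 genes under library totals, DESeq2 size factors and FPKM, 57 kept their sign. CCNB1 in SW1990 cells reversed to -0.16 by FPKM, and the cause was not tested. The other 2, CCND3 in SW1990 cells (0.06 by FPKM) and CDK6 in PANC-1 cells (-0.01 with DESeq2 size factors), had counting intervals that include 0. Between the lines, from 3 (no filter) to 5 (DESeq2) of the 10 genes were called. CCNA2 passed under DESeq2, library totals and limma on FPKM, and CCNB1 was lost under library totals, no filter and limma on FPKM. Genes past 2-fold over the whole table numbered 1510 in SW1990 and 1383 in PANC-1 cells, but 7954 and 7915 without a filter, 343 and 363 at an FPKM of at least 5, 3192 and 3278 at 1.5-fold, 650 and 713 at a q-value below 0.001, and 245 and 253 with an assumed coefficient of variation of 0.2. Library totals moved the median of all genes in PANC-1 cells from -0.02 to 0.07 and that of the 10 genes from 0.11 to 0.20. By counts per kilobase of exon in place of FPKM, CCND1 made up 93.0% and 94.96% of D-type cyclins in PANC-1 cells, CDK4 73.7% and 64.4% of its pair in SW1990 and 66.8% and 54.4% in PANC-1 cells, CCNE1 68.5% in irradiated PANC-1 cells, and CDK1 56.8% and 64.0% in PANC-1 cells, unirradiated first. The difference of the radiation change between lines was recomputed after the data were seen. Of the pathway lists, added likewise, FPKM in place of counts left FOXM1 under 2-fold in both lines. It put CDKN1C, CDK5 and BIRC5 past 2-fold in PANC-1 cells, where CDKN1C reached an FPKM of 1 only with radiation. Over all genes, 1662 of 15731 in SW1990 and 1540 of 15159 in PANC-1 cells passed 2-fold by FPKM. With library totals, the difference between lines was -0.25 for CCND1, 0.36 for CDK6, -0.26 for CCNA2 and -0.17 for CCNB1. By FPKM it was -0.28 for CCND1, 0.20 for CDK6, -1.13 for CCNE2 and -0.73 for CCNB1.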

Other observations

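Among 11731 genes at or above an FPKM of 1 in all 4 libraries, those whose profile of log2 CPM over the libraries lay nearest to that of CCND1 were OGFR, DHRSX and PEX26, at Euclidean distances of 0.0260, 0.0399 and 0.0444 on the centred log2 scale. Nearest to CDK1 were PHF10, INTS5 and PBX4, at 0.0390, 0.0512 and 0.0548. With 4 libraries these distances describe the libraries only.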
